A study of Mus musculus with 60 samples.

Results

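The genes described here encode heterotrimeric G protein subunits, the RGS proteins that act on them, and the enzymes that make, degrade and respond to cyclic AMP (cAMP). They were chosen by symbol: every gene of the deposited gene table whose symbol began with Adcy, Pde, Rgs, Gnb or Gng followed by a digit, or with Prkac, Prkar, Gnai, Gnao, Gnaq, Gnas, Gnal or Gnaz. This gave 55 of the 9066 genes and 840 of the 114691 exon rows. The members were 7 G alpha subunits, 4 G beta subunits, 3 G gamma subunits, 9 RGS genes, 7 adenylyl cyclases, 19 phosphodiesterase genes and 6 subunits of protein kinase A. The rule used no measured value. It also took genes that match by letters only: Pde4dip encodes myomegalin, a centrosomal and Golgi protein that binds a phosphodiesterase, Pde6d encodes a carrier of prenylated proteins, Pde12 encodes an RNA-trimming enzyme, and Rgs7bp encodes a membrane anchor of RGS proteins. Genes of these families with no row in the table, such as Gnai1, Rgs4 and Pde2a, were not analysed here.

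A receptor that binds its ligand loads a G alpha subunit with GTP, and the alpha subunit then parts from its beta and gamma partners. Stimulatory alpha subunits switch adenylyl cyclases on and inhibitory ones switch them off, cAMP releases the catalytic subunits of protein kinase A from their regulatory subunits, phosphodiesterases end the signal by hydrolysing cAMP or cGMP, and RGS proteins end it earlier by speeding GTP hydrolysis on the alpha subunit. In medium spiny neurons of the striatum, dopamine and adenosine receptors raise cAMP through Gnal, Gng7 and Adcy5, while dopamine receptors of the other class lower it, and Pde10a, Pde1b and Rgs9 are abundant there.

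PolyA RNA of the hand-dissected striatum was sequenced from 60 HS-CC mice, a heterogeneous stock bred from the strains of the Collaborative Cross, with 1 library per mouse. Per the study's methods the animals came from earlier generations of selective breeding for the response to haloperidol, a dopamine receptor blocker that causes catalepsy, a state of immobility. The labels divide them by catalepsy phenotype into 30 non-responders (13 females, 17 males) and 30 responders (15 females, 15 males). Each mouse was its own animal and carried its own mixture of founder alleles. The labels name no age. Mice are numbered here as in their sample titles.

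Reads recovered from the deposited values numbered 4913122 to 21872744 per mouse. Mice 41 to 56 and mouse 26 had at most 9507322 reads (17 shallow libraries) and the other 43 had at least 12051239 (deep libraries). Mouse 63 stood apart by a 3′ bias of 1.623, followed by mice 5, 4 and 62. For each of 2173 genes a line was fitted to a mouse's log2 exon values, relative to the mean mouse, from the first exon row to the last, and 3′ bias is the median slope. Mouse 63 held the lowest or highest value of the 60 mice in 24 instances over the 55 members, against at most 8 for any other mouse. The labelled tissue was checked by markers: medium spiny neuron markers Ppp1r1b and Adora2a averaged 22300 and 8000, and the 7 of 10 listed markers with a row summed to 43622.4 to 115218.7 in non-responders and 47554.8 to 103016.6 in responders. Tbr1, a marker of cortical pyramidal neurons, averaged 1612, and the other cortical markers used here had no row. It ran from 700.5 to 2913.4 in non-responders (median 1528.8) and from 218.6 to 3089.1 in responders (median 1441.3). Marker sums of striatal interneurons, astrocytes, oligodendrocytes, microglia and endothelial cells had overlapping ranges in the phenotypes, and no listed choroid plexus marker had a row.

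Promoter windows of RefSeq (GRCm38.p6, 250 bases before to 50 after a transcript start) were found for 41 of the 55 members, with 81 windows. They were searched on both strands for the full cAMP response element, TGACGTCA, and for its short form, TGACG or CGTCA, which the full element contains. The full element was in 2 of the 81 windows (2.47%) and in 1.79% of all 32851 windows, both of them overlapping windows of Prkar1a, and the short form was in 24 of the 81 (29.6%) and in 20.8% of all. Upstream stretches are shown here for 5 members, for the single member with a full element, for the member with the smallest p by phenotype (Pde8a), for the members at the ends of the relation with Tbr1 described further on (Gng7 and Adcy1), and for Adcy5, the main striatal cyclase. Capitals mark the full element in Prkar1a and the short form in Pde8a and Gng7, and the stretches of Adcy5 and Adcy1 hold neither in these 250 bases. The Gng7 stretch shown lies inside the gene. The stretch at the annotated start of Gng7 (chr10:81014926-81015175, not shown) holds neither form. Prkar1a also has further windows that are not shown. A match is a run of letters and not a measured site.
Prkar1a, chr11:109650699-109650948, plus strand: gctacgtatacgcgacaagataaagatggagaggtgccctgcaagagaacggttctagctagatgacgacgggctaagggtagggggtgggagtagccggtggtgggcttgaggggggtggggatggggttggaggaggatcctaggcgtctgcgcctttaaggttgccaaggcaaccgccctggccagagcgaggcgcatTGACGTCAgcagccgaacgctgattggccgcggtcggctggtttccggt
Pde8a, chr7:81213015-81213264, plus strand: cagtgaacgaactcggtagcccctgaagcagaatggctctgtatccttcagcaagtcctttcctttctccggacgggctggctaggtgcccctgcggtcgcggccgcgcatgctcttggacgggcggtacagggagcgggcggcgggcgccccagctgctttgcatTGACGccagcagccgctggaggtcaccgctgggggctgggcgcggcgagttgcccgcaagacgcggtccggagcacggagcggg
Gng7, chr10:81001366-81001615, minus strand: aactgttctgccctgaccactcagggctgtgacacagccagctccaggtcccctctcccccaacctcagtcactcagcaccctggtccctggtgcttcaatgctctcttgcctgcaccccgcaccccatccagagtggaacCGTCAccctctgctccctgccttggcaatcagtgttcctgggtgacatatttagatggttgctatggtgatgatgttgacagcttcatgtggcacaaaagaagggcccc
Adcy5, chr16:35154614-35154863, plus strand: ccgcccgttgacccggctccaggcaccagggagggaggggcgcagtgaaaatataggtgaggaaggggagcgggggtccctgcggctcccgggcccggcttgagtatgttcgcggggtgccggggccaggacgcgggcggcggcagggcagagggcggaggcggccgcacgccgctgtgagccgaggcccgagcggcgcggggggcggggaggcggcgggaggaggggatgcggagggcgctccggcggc
Adcy1, chr11:7063183-7063432, plus strand: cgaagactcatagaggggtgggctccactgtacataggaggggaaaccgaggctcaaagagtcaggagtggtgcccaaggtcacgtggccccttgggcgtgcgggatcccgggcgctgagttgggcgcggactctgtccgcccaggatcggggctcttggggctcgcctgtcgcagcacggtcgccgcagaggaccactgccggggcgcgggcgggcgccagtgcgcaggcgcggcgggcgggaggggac
The GC content of these 5 stretches ran from 57.2% in Gng7 to 78.0% in Adcy5. The median over the upstream bases was 52.4% for all windows and 59.6% for member windows. Windows of 1 gene can differ, and those of Prkar1a ran from 40.4% to 80.4%.

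Levels were compared between genes as the deposited value per 1000 exon bases, called the level per kb. The exon bases came from a different gene annotation than the models on which reads were counted. Reads were also uneven along genes: a single exon row held over 50% of the exon counts in 41 of the 55 members. How far annotated length and this unevenness set the order of levels between genes was not tested. The 55 members ran from 0.977 per kb (Pde6a, a subunit of the rod photoreceptor phosphodiesterase) to 5527 per kb (Gng7), with a median of 316.6, against 136.1 over all genes. Together they held 1.89% of all recovered reads. All but Pde6a averaged at least 10 in the deposited value and entered the tests, and 42 averaged at least 500.

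**Figure D1:**
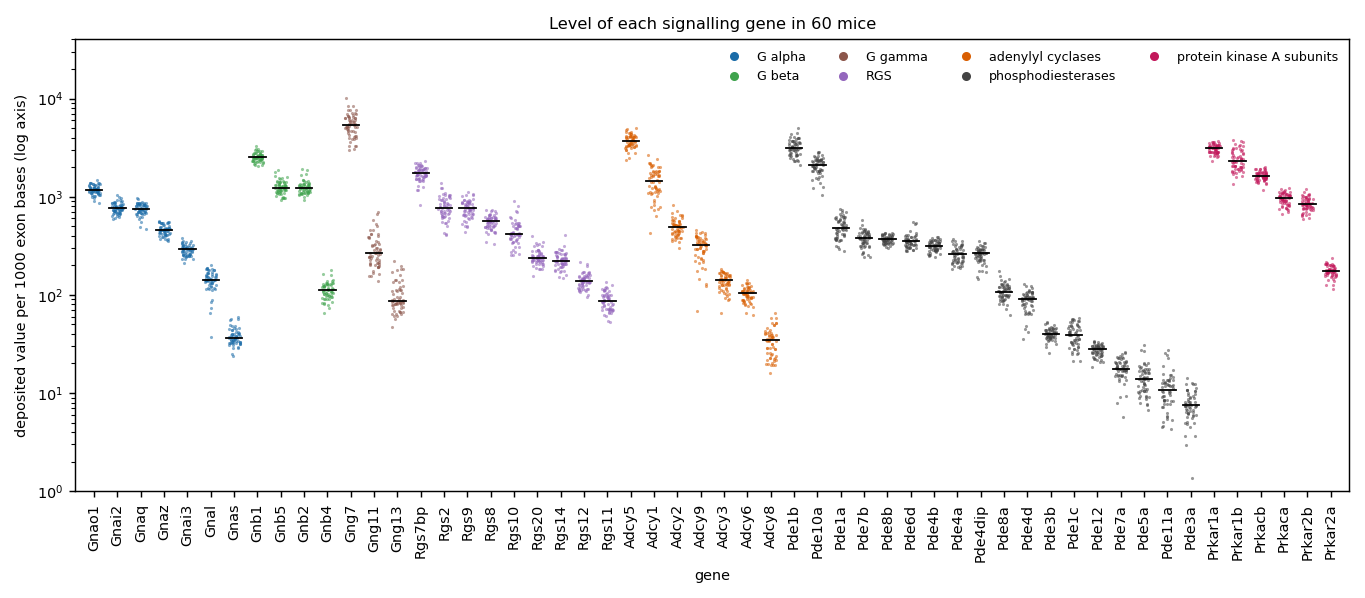
Deposited value per 1000 exon bases (log axis) of the 54 members that averaged at least 10, grouped by role in colour; each point is 1 of 60 mice and each black bar the median. Gng7, Adcy5, Pde1b and Prkar1a lead, while Gnas, Adcy8 and several phosphodiesterases lie below 50 per kb.

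Among G alpha subunits, Gnao1, the main inhibitory-type alpha subunit of neurons, had the highest level (1184 ± 125 per kb, SD, n = 60), followed by Gnai2 (771.5 ± 96.8), which inhibits cyclases, and Gnaq (755.2 ± 98.6), which drives phospholipase C. The levels of Gnai2 and Gnaq differed by less than their SD. Gnal, the stimulatory alpha subunit of the striatum and olfactory system, had a level of 142.6 ± 31.2 per kb. Its deposited value ran from 411.3 in mouse 63 to 2264 with a median of 1595. Gnas, the stimulatory alpha subunit of most tissues, was lowest of the 7 at 37.99 ± 7.56 per kb. Its value rests on few exon rows: 3 of its 8 rows were 0 in every mouse and 1 row held 66.1% of its exon counts, and 22% of its annotated exon length overlaps genes of the other strand. How far the count of Gnas stands for the whole gene was not tested.

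Of the beta subunits Gnb1 led at 2546 ± 257 per kb, and Gnb5, the beta subunit that pairs with Rgs9 and its relatives, had 1264 ± 196. Gnb2 had 1255 ± 192, and its level differed from that of Gnb5 by less than their SD over mice. Gnb4 was lowest at 111.8 ± 21.8. The gamma subunits were far apart. Gng7, the partner of Gnal in striatal neurons, had the highest level of all members at 5527 ± 1458 per kb, and its deposited value ran from 11430 to 38130 with a median of 20440. Gng11 had 298.1 ± 121 and Gng13 had 100.6 ± 38.4. Both were variable, with a coefficient of variation over mice of 0.406 for Gng11 and 0.382 for Gng13, and 51.6% of the annotated exon length of Gng13 overlaps Chtf18 on the other strand, so that its reads cannot be told apart from those of Chtf18 without strand.

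Adcy5, the main cyclase of medium spiny neurons, was second of all members at 3719 ± 566 per kb. Its deposited value ran from 17090 to 36010 (median 26460). Adcy1, which calcium and calmodulin stimulate, had 1472 ± 483 per kb, and its deposited value ran from 5342 in mouse 63 to 32980 (median 18110), a 6.17-fold range. The ranges of these cyclases therefore differed in width, with a coefficient of variation of 0.328 for Adcy1 and 0.152 for Adcy5. Adcy2 followed at 494.9 ± 100, and Adcy8, also stimulated by calcium, was lowest at 33.9 ± 11.2.

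Pde1b, stimulated by calcium and calmodulin, and Pde10a, which hydrolyses both cyclic nucleotides, led the phosphodiesterases at 3214 ± 593 and 2082 ± 400 per kb. Deposited values ran from 11480 to 26970 for Pde1b and from 13430, again in mouse 63, to 36790 for Pde10a. Pde1a followed at 492.3 ± 115, and Pde7b, a cAMP-specific enzyme, at 378.4 ± 67.9. Pde8b, another cAMP-specific enzyme, was the steadiest of all members: it ran from 1750 to 2534, with a coefficient of variation of 0.0874. Pde6a was listed at 0 in some mice and at most at 27.4.

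All 6 kinase subunits had levels above the median of all genes. Prkar1a and Prkar1b, regulatory subunits of type I, had 3095 ± 310 and 2416 ± 581 per kb, and the catalytic subunits Prkacb and Prkaca had 1644 ± 174 and 955.7 ± 131. Prkar2b, the type II regulatory subunit of striatal neurons, had 845.7 ± 130, and Prkar2a was lowest at 176.0 ± 23.3. Prkar1a was steady (coefficient of variation 0.1001), while Prkar1b varied from 5110 to 14250 (0.240).

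Among the RGS genes, Rgs7bp had 1738 ± 285 per kb. Rgs2, which acts mainly on Gnaq, had 793.4 ± 205 and Rgs9, the RGS protein of medium spiny neurons, had 765.0 ± 153. These levels differed by less than their SD over mice. Rgs8 had 554.5 ± 87.7 and Rgs10 had 444.9 ± 127. Rgs11 was lowest at 87.8 ± 18.7. Over the 51 members that averaged at least 100 the coefficient of variation had a median of 0.182, against 0.156 over all 7849 such genes.

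The first comparison asked which members differed between the catalepsy phenotypes. With limma on log2(value + 1), phenotype and sex in the model and Benjamini-Hochberg adjustment over all 8535 genes tested, 0 of 54 members passed an adjusted p of 0.05, against 9 genes in all (0.105%). At an unadjusted p under 0.05 there were 2 members, against 6.49% of all genes. The edgeR quasi-likelihood test and DESeq2 on recovered reads also called 0 members, with 2 each at an unadjusted p under 0.05. The median log2 difference was -0.02 over the members and 0.00 over all genes. Of the 54 members 19 were higher in responders, against 4088 of all 8535 genes, and this count was not tested. No member had ranges of the phenotypes that did not overlap (0 of 54, against 0.0% of all genes). The 95% interval of the difference lay within ±0.5 on the log2 scale for all 54 members and within ±0.25 for 39 of them.

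**Figure D2:**
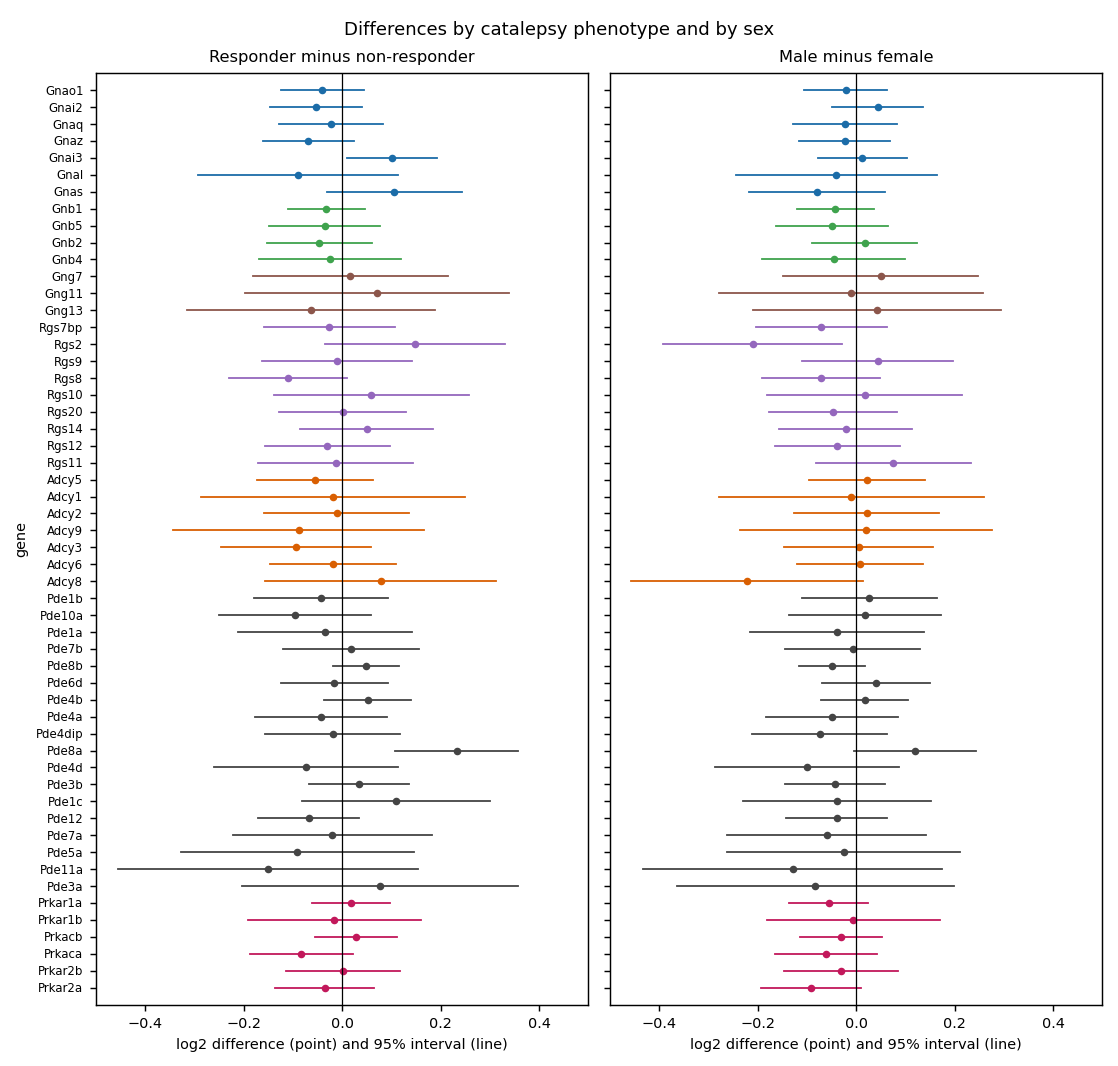
Log2 difference (point) and 95% interval (line) of 54 members from limma, responder minus non-responder at left and male minus female at right, with colours by role. All intervals lie inside ±0.5, the interval of Pde8a at left is the one farthest above 0, and most others cross 0.

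Pde8a, a cAMP-specific phosphodiesterase of high affinity, had the smallest p of the members. Its deposited value ran from 253.8 to 709.6 in non-responders (median 397.7) and from 346.3 to 637.1 in responders (median 474.5). The responders' median was thus above that of the non-responders, while the highest value of all was in a non-responder. The log2 difference was 0.23 (SE 0.06, limma, adjusted p = 0.113). Over the alternatives it ran from 0.13 to 0.28 and its adjusted p from 0.0477 to 0.9998, with 0.27 in females and 0.20 in males fitted alone. Adding the 3′ bias of each mouse to the model gave 0.24 with an adjusted p of 0.0477, where 61 of all genes passed (0.715%) and Pde8a was the 1 member among them. The call thus depended on the covariates. Leaving out mouse 63 gave 0.24 (limma, adjusted p = 0.112).

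Gnai3, an inhibitory alpha subunit, was the other member at an unadjusted p under 0.05, with 752.4 to 1161.8 in non-responders (median 909.5) and 686.1 to 1234.8 in responders (median 981.6). The log2 difference was 0.10 (limma, adjusted p = 0.671). Rgs8 had -0.11, Rgs2 0.15 and Prkaca -0.08, with adjusted p of 0.856, 0.952 and 0.966 (limma). For Rgs2 the sign depended on the libraries, with 0.25 in deep libraries alone and -0.15 in shallow ones alone.

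None of the best-known striatal genes of the pathway passed by phenotype. Gnal had a median of 1590 in non-responders and 1632 in responders, and a log2 difference of -0.09 with an interval from -0.29 to 0.11. Gng7 had medians of 20400 and 20440, and an interval from -0.18 to 0.21. Adcy5 had medians of 28150 and 26390, and an interval from -0.17 to 0.06. For Pde10a they were 27280 and 26720, with an interval from -0.25 to 0.06. Rgs9 had medians of 5043 and 4808, and an interval from -0.16 to 0.14. For each of these 5 genes the phenotypes overlapped and the interval of the difference included 0.

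By sex, 0 of 54 members passed in limma, against 3 genes in all (0.0351%), and 1 member had an unadjusted p under 0.05, against 2.04% of all genes. The edgeR test and DESeq2 also called 0, with 2 at an unadjusted p under 0.05 in each. Rgs2 had the smallest p: it ran from 1808.7 to 4992.4 in females (median 3095) and from 1462.7 to 3775.5 in males (median 2632). Its log2 difference, male minus female, was -0.21 (SE 0.09, limma, adjusted p = 1). Females thus held the higher median, with wide overlap. Next came Pde8a (0.12), Adcy8 (-0.22), Prkar2a (-0.09) and Pde8b (-0.05). The phenotype difference did not pass a test of its dependence on sex for any member: limma called 0 of 54 and 0 of all genes (0.0%), with 0 members at an unadjusted p under 0.05 (0.562% of all genes), and edgeR gave the same counts of members. The smallest interaction p was that of Rgs11 (-0.24, limma, p = 0.123 before adjustment).

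A larger difference between mice ran along the level of the cortical marker Tbr1. In a model with phenotype and sex, 38 of 54 members changed with this level, 19 upward and 19 downward, against 39.6% of all genes (21.3% upward and 18.3% downward). In bulk tissue, fewer cells of a type and less RNA per cell cannot be told apart, and whether the share of cortical tissue in the dissection sets this relation was not tested. The level rests on 1 gene. The medium spiny neuron genes Drd2 and Ppp1r1b each moved by -0.17 on the log2 scale per doubling of Tbr1, and Adora2a by -0.15. Slopes of the other listed markers of these neurons with a row, Penk, Tac1, Foxp1 and Bcl11b, are not given here.

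**Figure D3:**
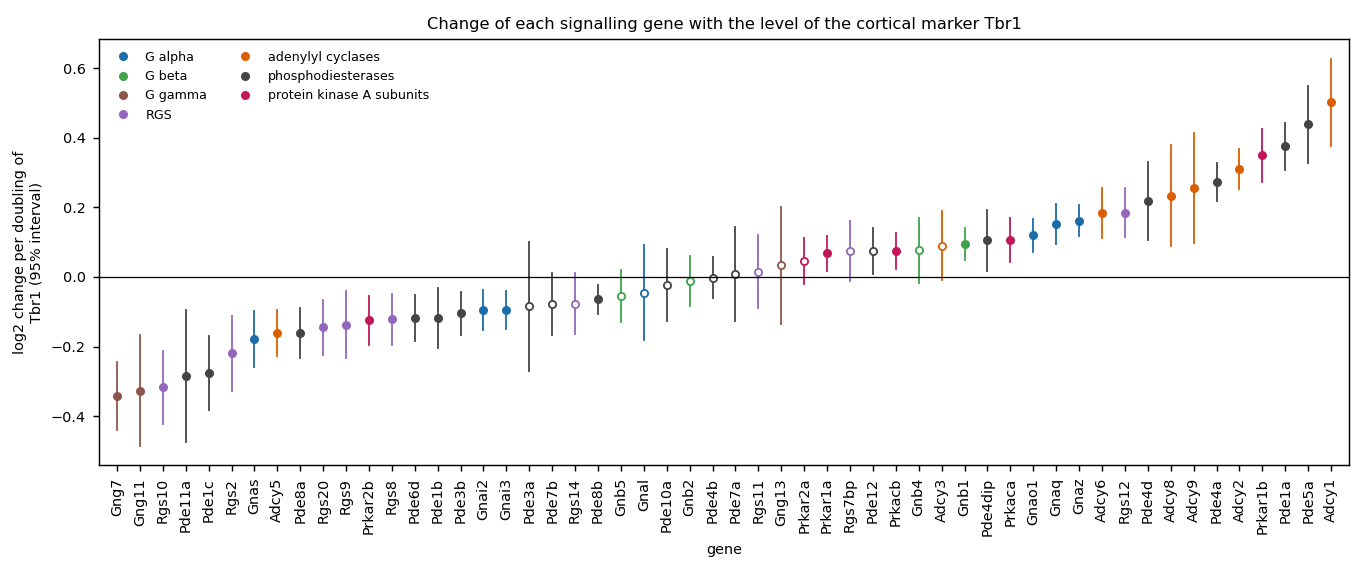
Log2 change per doubling of Tbr1 over 60 mice (point) with its 95% interval (line), for 54 members in order of size and coloured by role; filled points had an adjusted p under 0.05 in limma. Gng7 (-0.34) and Adcy1 (0.50) are at the ends.

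Of the genes that stimulate cAMP production in the striatum, Gng7, Gnas and Adcy5 went down as Tbr1 went up, by -0.34, -0.18 and -0.16 per doubling (SE 0.05, 0.04 and 0.03; limma, adjusted p 8.85e-08, 0.000268 and 9.73e-05). Gnal had -0.05 with an interval from -0.18 to 0.09 and did not pass. Gng11 had -0.33, Rgs10 -0.32, Pde1c -0.28 and Rgs2 -0.22. Rgs9 had -0.14, Prkar2b -0.12 and Pde1b -0.12, and each of these passed.

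Upward, Adcy1 had 0.50 per doubling (SE 0.06, limma, adjusted p = 1.73e-09). The cGMP-specific Pde5a had 0.44, Pde1a 0.38, Prkar1b 0.35 and Adcy2 0.31. Of the 7 cyclases 5 went up, among them the calcium-stimulated Adcy1 and Adcy8 (0.23) and also Adcy6 (0.18), a close relative of Adcy5, while Adcy5 went down and Adcy3 (0.09) did not pass. Of the alpha subunits Gnaz (0.16), Gnaq (0.15) and Gnao1 (0.12) went up, and Gnai2 and Gnai3 (-0.09 each) went down. The phosphodiesterases split likewise, with Pde4a (0.27) and Pde4d (0.22) up. Pde10a had -0.02 and an interval from -0.13 to 0.08.

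**Figure D4:**
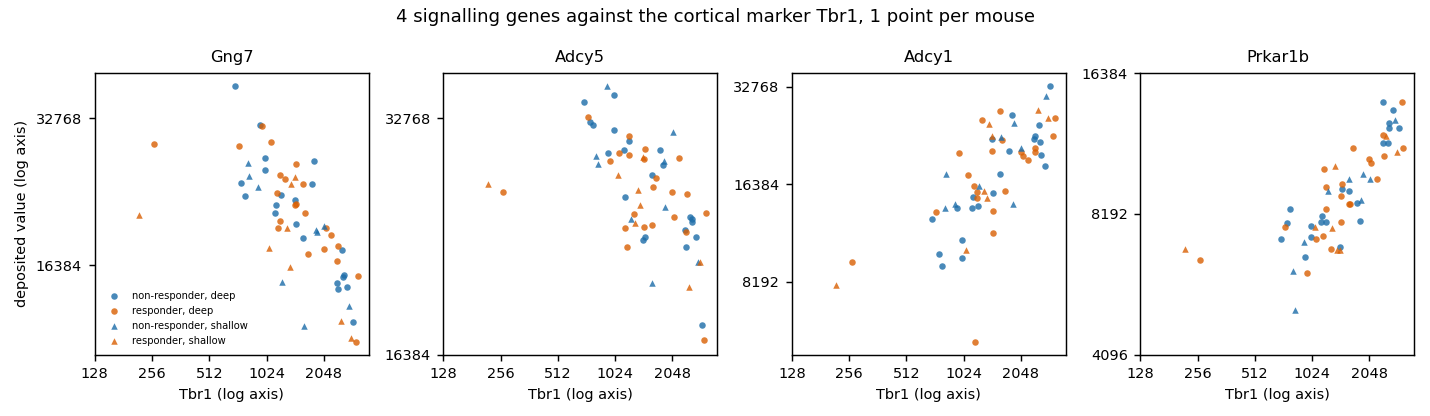
Deposited value of Gng7, Adcy5, Adcy1 and Prkar1b against that of Tbr1, both on log axes, with 1 point per mouse, colour for phenotype and shape for library depth. Gng7 and Adcy5 fall and Adcy1 and Prkar1b rise to the right, the phenotypes are mixed, and mouse 63 is the lowest point of Adcy1 at 5342.

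In the 17 shallow libraries alone 9 members passed, against 5.5% of all genes, and in the 43 deep libraries alone 35 did, against 44.7%. Of the 38 members that passed in all mice none changed sign in deep libraries, and 1 did in shallow ones, Pde4dip, from 0.11 to -0.0033. With 3′ bias and depth also in the model 40 members passed, against 47.3% of all genes, and without mouse 63 there were 38, against 41.4%.

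Along 3′ bias itself 35 of 54 members changed, 14 upward and 21 downward, against 77.2% of all genes (39.5% upward and 37.7% downward). Pde3a had -1.39 per unit, Adcy9 -1.36, Gnal -1.12, Pde7a -1.08 and Pde4d -0.997, and Adcy1 had -0.85. Upward were Gng11 (1.02), Gng13 (0.85), Rgs10 (0.77) and Rgs2 (0.59). Between shallow and deep libraries 21 of 54 members differed, 8 higher and 13 lower in shallow ones, against 53% of all genes (25.3% higher and 27.7% lower). The log2 difference, shallow minus deep, was 0.46 for Pde11a, 0.45 for Pde7a, 0.27 for Gnal and -0.37 for Gng11. The 3′ bias moved with depth, with a median of -0.23 in shallow and -0.009 in deep libraries, and its part in these differences was not tested. By phenotype its median was -0.05 in non-responders and -0.017 in responders. Mice 41 to 56 held 8 responders and 8 non-responders.

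Pairs of members linked by known biochemistry, as partners or as related enzymes or subunits, were then compared over the 60 mice. The pairs were listed with earlier results of these data known. Of 12 pairs 11 could be computed, since Rgs4 had no row, and 8 had an adjusted p under 0.05 (permutation test of Pearson's r on log2 values, 100000 resamples, two-sided, Benjamini-Hochberg over the 11 pairs). The share of all gene pairs that would pass was not computed, so nothing particular to these pairs is read from this count. Several of these genes also changed with Tbr1, which was not taken out of any r given here. The highest was that of the kinase subunits Prkar1b and Prkaca, with r = 0.78 and Spearman's rho = 0.79 (permutation p = 1e-05 for each, the smallest these resamples can give; adjusted p 3.7e-05 and 2.2e-05). Within deep and shallow libraries r was 0.76 and 0.83, and without the 2 mice farthest from the median of Prkar1b it was 0.76.

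Adcy5 and Gng7 had r = 0.76 and rho = 0.71 (permutation p = 1e-05 for each, adjusted p 3.7e-05 and 2.2e-05), with r = 0.75 in deep and 0.81 in shallow libraries and 0.71 without the 2 mice farthest from the median. Rgs9 and its beta subunit Gnb5 had r = 0.62 and rho = 0.63 (permutation p = 1e-05 for each, adjusted p 3.7e-05 and 2.2e-05). Within deep and shallow libraries r was 0.71 and 0.68, and it was 0.59 without the 2 farthest mice. Adcy5 and Pde10a had r = 0.55 and rho = 0.55 (permutation p 2e-05 and 1e-05, adjusted 5.5e-05 and 2.2e-05), with 0.57 in deep libraries, 0.66 in shallow ones and 0.48 without the 2 farthest mice.

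Pde1b and Pde10a had r = 0.44 and rho = 0.51 (permutation p 0.0006 and 4e-05, adjusted 0.0011 and 7.3e-05). Here r was 0.47 in deep and 0.90 in shallow libraries, and 0.46 without the 2 farthest mice. Without mouse 63, a deep library with the strongest 3′ bias, r was 0.57. The cyclases Adcy1 and Adcy5 went in opposite directions, with r = -0.51 and rho = -0.60 (permutation p 5e-05 and 1e-05, adjusted 0.00011 and 2.2e-05), -0.50 and -0.52 within deep and shallow libraries and -0.66 without the 2 farthest mice. Prkar2b and Prkacb had r = 0.31 and rho = 0.24 (permutation p 0.018 and 0.0704, adjusted 0.025 and 0.086), and in neither set of libraries alone did r pass (0.18 and 0.33), while it was 0.27 without the 2 farthest mice.

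The pairs with Gnal varied with the set of mice. The 4 mice of strongest 3′ bias were all among the deep libraries, so these sets differed in more than depth. Gnal and Adcy5 had r = 0.34 and rho = 0.45 (permutation p 0.0073 and 0.00043, adjusted 0.011 and 0.00059), with 0.32 in deep and 0.77 in shallow libraries and 0.46 without the 2 farthest mice. Gnal and Rgs9 had r = 0.25, which did not pass, and rho = 0.48, which did (permutation p 0.0534 and 0.00012, adjusted 0.059 and 0.00019). It was 0.15 in deep and 0.74 in shallow libraries, and 0.51 without the 2 farthest mice. Gnal and Gng7 had r = 0.00 and rho = 0.04 (permutation p 0.993 and 0.733, adjusted 0.99 and 0.73), with 0.02 and 0.39 within the depth sets and 0.06 without the 2 farthest mice. Gnal and Gnas, the stimulatory alpha subunits, had r = -0.25 and rho = -0.10 (permutation p 0.0529 and 0.438, adjusted 0.059 and 0.48), with -0.42 in deep libraries, which passed there (permutation p = 0.00591, adjusted p = 0.0093 over the 11 pairs), 0.09 in shallow ones and -0.04 without the 2 farthest mice. After 3′ bias, depth, sex and phenotype were taken out of both genes of a pair, r was 0.78 for Gnal and Adcy5, 0.80 for Gnal and Rgs9 and 0.43 for Gnal and Gng7. For Pde1b and Pde10a it was 0.86.

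Over all 1275 pairs of the 51 members that averaged at least 100, the median r was 0.06, and 49 pairs were above 0.7 and 26 below -0.7. The pairs share libraries, depth and dissection, and these r values are given as a description. Adcy9 and Pde4dip had the highest (0.90), then Pde10a and Pde7b (0.89), Adcy9 and Pde4d (0.88), Gnaz and Prkar1b (0.87) and Gnb5 and Pde1b (0.86). After the same adjustment the pair of Pde10a and Pde7b had 0.92 and Gnaz and Prkar1b 0.89, while Adcy9 and Pde4d had 0.67. The lowest were Adcy9 and Pde6d (-0.85), Pde4dip and Pde6d (-0.84), Gng11 and Pde4dip (-0.83), Pde4d and Pde6d (-0.82) and Gng7 and Prkar1b (-0.82). After adjustment Adcy9 and Pde6d had -0.68 and Gng7 and Prkar1b -0.89.

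The exon table lists each row by gene and position on NCBI m37, without an end. Of the 840 member rows, 147 (17.5%) were 0 in every mouse, in 41 genes, against 14.1% of all rows. Another 175 averaged under 10. Of the rest, 2 were the single such row of their gene (Gng13 and Pde12), which leaves no usage to compare, and 516 entered the test of usage, which compares a row's share of its gene's exon counts. One row held over 50% of the counts in 41 of the 55 members, and in 44 the highest row was the last one from the 5′ end. In Gng7 the highest row held 94.9%, in Rgs8 91.6% and in Adcy1 87.3%. In Rgs9 the highest held 28.97% and in Pde4dip, with 50 rows the longest list, 19.4%.

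In Pde4dip the row of highest usage (chromosome 3, position 97542767) was in the middle, the 27th of 50 from the 5′ end, with 14.1% to 37.6% of the gene's counts in 60 mice (median 19.7%). The row after it, at 97534750, was the lowest of those tested (median 0.277%). In Pde4d the last of 33 rows (chromosome 13, position 110741139) held 60.1% to 81.0% (median 69.3%), and the lowest row tested, at 110724076, had a median of 0.959%. In Pde10a the last of 31 rows (chromosome 17, position 9174398) held 76.1% to 95.4% (median 82.6%), and the lowest tested, at 9042850, had 0.0648% to 0.273% in mice 41 to 56 (median 0.121%) and at most 0.0181% in the others (median 0.00363%).

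By phenotype, limma on usage called 0 of the 516 member rows, against 14 of 66690 rows in all (0.021%), and 22 member rows had an unadjusted p under 0.05, against 4.81% of all rows. No member row had phenotype ranges that did not overlap (0 of 516, against 0.0% of all rows). Gng11 gave the smallest p. Its first row (chromosome 6, position 3953943) held 28.9% to 50.8% of the gene's counts in non-responders (median 39.1%) and 28.1% to 46.8% in responders (median 34.3%). The log2 usage difference was -0.18 (SE 0.04, limma, adjusted p = 0.183). The shares of the 2 rows of this gene sum to the whole, and the other row had 0.10 had 0.10 (limma, adjusted p = 0.228). Without the 4 mice of strongest 3′ bias the first row had -0.19 and passed (limma, adjusted p = 0.0425), the 1 member row called by any alternative. Next were a Pde4a row at 20999190 (-0.41), a Gnb5 row at 75174940 (-0.16) and an Adcy3 row at 4208577 (0.32), with adjusted p of 0.41 to 0.58 (limma).

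By sex, 0 of 516 member rows and 0 of all rows passed in limma (0.0%), with 8 member rows at an unadjusted p under 0.05, against 2.64% of all. The smallest p was that of the first Pde4a row, at 20970158 on chromosome 9 (0.19, limma, adjusted p = 1). The next rows were in Adcy6 (0.22), Adcy3 (-0.19), Pde4dip (-0.11) and Pde7a (0.08).

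Usage of some Pde10a rows followed the mouse numbers. The row at position 9113369 on chromosome 17, the 10th of 31 from the 5′ end, was chosen after its values were seen, for its SD of log2 usage over mice among rows averaging at least 100 in all mice. It averaged 149.9 over all mice. The row reached the limit of 100 through mice 41 to 56, which had 236 to 745, while the other 44 mice had 5 to 137. It held 0.849% to 2.21% of the Pde10a counts in mice 41 to 56 (median 1.45%) and 0.0372% to 0.490% in the other 44 mice (median 0.171%), so these sets did not overlap. Mouse 26, shallow like mice 41 to 56, had 0.279% and lay with the other mice. By phenotype the row ran from 0.0510% to 2.09% in non-responders and from 0.0372% to 2.21% in responders.

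**Figure D5:**
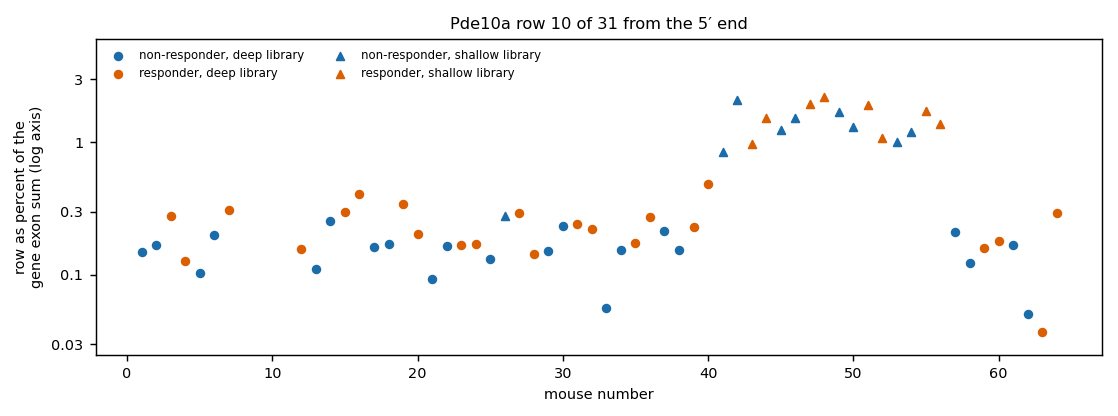
Share of the Pde10a exon counts in the row at position 9113369 (percent, log axis) against mouse number, with 1 point per mouse, colour for phenotype and shape for library depth. Mice 41 to 56 lie at 0.849% or more, and all other mice at 0.490% or less.

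Of the 516 member rows, 7 separated mice 41 to 56 from all others in this way, against 0.6% of all rows tested. The filter used the mean of all mice, so that a row can enter through the set where it is high, as the row at 9042850 did with a mean of 10.87, and nothing is read from these counts. They were 3 rows of Pde10a, at 9042850, 9113369 and 9174398, and 1 row each of Adcy1, Gnaq, Pde4dip and Pde7b. For the last Pde10a row the share was 76.1% to 79.8% in mice 41 to 56 and 81.0% to 95.4% in the others. No member separated these mice by its gene value (0 of 54, against 1.45% of all genes). Usage differed between shallow and deep libraries for 204 of the 516 member rows (limma, adjusted p under 0.05), against 36% of all rows. The 3′ bias also moved with these mice: it was -0.285 to -0.147 in mice 41 to 56 and -0.158 to 1.623 in the others, with -0.012 in mouse 26. The part of 3′ bias and of read number in these shares was not tested, and the labels name nothing else that sets mice 41 to 56 apart.

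Other genes of the pathway were counted from a list of 74 receptors, kinase substrates, anchors and effectors, of which 56 had a row. In limma 0 passed by phenotype and 0 by sex, against 0.105% and 0.0351% of all genes. At an unadjusted p under 0.05 there was 1 by phenotype (the adenosine receptor Adora1, log2 difference -0.16, adjusted p = 0.693), against 6.49% of all genes. By sex there were 0, against 2.04%. Along Tbr1 14 of the 56 went up and 15 down, against 21.3% and 18.3% of all genes. The channel subunits that G beta and gamma open were upward, with 0.87 for Kcnj6, 0.68 for Kcnj3 and 0.53 for Kcnj9 per doubling.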

How the data were processed

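Reads of polyA RNA were aligned by the authors with Bowtie 0.12.7 to NCBI m37 (mm9) and counted on Ensembl 59 gene models by union exon. Per gene the authors deposited a signal, these counts scaled by upper quartile factors from edgeR 3.4.2. Dividing each column by the value of 1 read gave back whole reads (100.0% of values lay within 0.001 of a whole number). Per exon the authors deposited a score, namely exon counts normalized by upper quartile and rounded. Tool versions are from the submitters' processing notes. Symbols were found for 97.7% of identifiers, and gene structure, with the exon lengths used for the level per kb, came from GENCODE M21. The kit does not mark strand, and 17 members overlap an exon of the other strand. The replicate was the mouse, and depth and the spread between mice set the precision; the smallest chi-square per gene between mice was 2.91, so each library counted as its own. P-values of the fits weigh a difference against the spread between mice, and those of the pairs come from permuting mice. Recovered reads numbered 4913122 to 21872744 per mouse.

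Genes averaging at least 10 were tested with limma 3.58.1 (trend, log2(value + 1), R 4.3.3) for phenotype and sex, and exon rows averaging at least 10, in genes with more than 1 such row, on log2 usage, with edgeR 4.0.16 and DESeq2 1.42.0 on recovered reads as alternatives. A fold on this scale understates changes of low genes. Scripts were tested on simulated data. Members, lists and pairs were chosen with earlier results of these data known. Named genes were the 3 highest and the lowest per role, the 5 smallest p per contrast, the 5 highest and lowest coefficients of variation, called members, a fixed list and, for exon rows, the 5 smallest p and the highest and lowest usage in 3 genes; the rows separating mice 41 to 56, alike pairs and other members named were chosen after their values were seen. The level of Tbr1, 3′ bias and depth were each added to the model as alternatives, and the alternatives to their own slopes were chosen after seeing the data. Further listed genes are not reported here, and no level given uses them.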

Additional observations from a re-analysis of the deposited data

How the results depend on the processing

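Counts of called members by phenotype and sex were 0 under the alternatives run (other tests, pseudocounts, filters, covariates, and sets of mice by depth, sex, phenotype and 3′ bias), except that adding 3′ bias gave 1 by phenotype (Pde8a), and that leaving out the 4 mice of strongest 3′ bias gave 1 exon row (Gng11). The number of members changing with Tbr1 was 35 to 40 (39.6% to 49.3% of all genes) except in shallow libraries alone (9, against 5.5%), where fewer mice were fitted and Pde4dip had -0.0033. Rgs2 by phenotype was -0.15 in shallow libraries. Gnal and Gng7 had r = -0.0344 on deposited values, -0.0114 without mouse 63 and 0.43 after adjustment. Gnal and Gnas had -0.42 in deep and 0.093 in shallow libraries. Prkar2b and Prkacb had 0.18 in deep and 0.33 in shallow libraries. Gnal and Rgs9 had 0.34 on deposited values, 0.34 without mouse 63, 0.74 in shallow libraries, 0.51 without the 2 farthest mice and 0.80 after adjustment; the cause was not tested. No paired analysis was possible because the labels give no replicate number, and the numbers assigned here within each phenotype only name the mice and pair none. Over all genes the phenotype counts were 9 in limma, 7 in edgeR, 25 in DESeq2, 61 with 3′ bias, 20 with depth, 14 with Tbr1, 13 without the 4 mice of strongest 3′ bias, 3 in deep libraries, 5 among genes averaging at least 500 and 0 in shallow libraries or in either sex alone. For exon rows they were 14, 41 with 3′ bias, 28 without those 4 mice and 8 in deep libraries. By sex 3 genes passed, 0 in deep libraries, 1 in shallow ones, 1 among non-responders and 0 among responders. Members of few reads, such as Pde3a and Pde11a, and rows averaging under 10 are limited by depth.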
